A study of Homo sapiens with 20 samples.

Results

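The response of Rh41 cells to the KDM4 inhibitor QC6352 was set against that of Rh30 cells, gene by gene, on 12 of the 20 arrays of the study. Both are alveolar rhabdomyosarcoma cell lines that carry the PAX3-FOXO1 fusion gene. Each line was grown in RPMI medium and treated for 48 h with 200 nM QC6352 or with the vehicle DMSO, with 3 arrays in each of the 4 groups that the labels call biological replicates. The arrays, Affymetrix Clariom S, measured 17687 genes with a symbol, and the remaining 8 arrays of the study, of Rh30 with KDM4B or KDM4C knocked down and their controls, entered the same fit to estimate the spread of each gene. The groups hold no other genotype or agent, and each line is represented by itself alone, so a difference between the lines cannot be assigned to any one feature in which they differ.

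KDM4 enzymes take methyl groups off lysines of histone H3, mainly the marks of silent chromatin and of transcribed gene bodies. In alveolar rhabdomyosarcoma the fusion protein drives a myogenic program in which MYOD1 and MYOG are expressed without full muscle differentiation. QC6352 inhibits the KDM4 family as a group, and both lines depend on the same fusion, so the comparison asks which genes respond alike and which do not.

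The response of a line is its QC6352 mean minus its DMSO mean on the log2 scale, and the difference is the response of Rh41 minus that of Rh30. A gene was called where the p value of the difference, from limma with Benjamini-Hochberg adjustment over all 17687 genes, was under 0.05. A positive difference means that the gene rose more, or fell less, in Rh41. The groups follow the sample titles. The sample name inside the description gives another group for all 6 Rh30 arrays used here (10 arrays of the study in all), and for none of the 6 Rh41 arrays. With the groups by sample name 762 genes were called, of which 318 were among those called by title, so every Rh30 value below holds for the titles only.

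Array medians lay at 6.95 to 6.99 log2 in Rh30 and 7.22 to 7.25 in Rh41, and the background probe sets had medians of 3.84 to 4.01 and 3.87 to 3.99. A group mean within 1 log2 of its background median (4.88 to 4.96) is called near background here, and a fold from or to such a mean is that of the measured signals, which the background limits. Of the 10 rhabdomyosarcoma markers examined, 2 were near background in Rh30 and 1 in Rh41. Their mean level was 9.4 to 9.45 log2 in Rh30 with DMSO and 8.73 to 8.9 with QC6352, and 10 to 10.1 and then 9.9 to 10 in Rh41. By the difference of responses, 5 of these 10 markers were higher in Rh41 (50%) and 1 lower (10%), against 10.5% and 9.45% of all genes. The higher count was 3 without Rh30 DMSO replicate 1, Rh41 DMSO replicate 1, or Rh41 QC6352 replicate 2 or 3. The means of the epithelial, blood, endothelial and fibroblast marker lists lay between 5.14 and 6.37 in all groups. The epithelial mean was 5.86 to 5.98 in Rh30 with DMSO and 6.13 to 6.28 with QC6352, and the fibroblast mean 6.03 to 6.17 and 6.31 to 6.36. Both means were higher with QC6352 in Rh30, without overlap, and their part in the differences was not tested. In these 4 lists 5 markers had a called difference: CLDN4 (1.91 in Rh30 and 0.38 in Rh41), TIE1 (0.74 and 0.27), THY1 (0.89 and 0.12) and FAP (0.25 and -1.11, near background in Rh30 and in Rh41 with QC6352) were lower in Rh41 and PECAM1 (-1.03 and -0.03) higher. In bulk RNA, fewer cells of a kind and less RNA per cell cannot be told apart.

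The response differed between the lines for 3534 genes, 20% of those tested, with 1862 higher in Rh41 (10.5%) and 1672 lower (9.45%). Of these, 864 differed by at least 1 log2. Rh30 was the line that moved more. Its own response passed the threshold for 6427 genes (36.3%: 19.9% rose and 16.5% fell), against 3479 (19.7%: 10.9% rose and 8.80% fell) in Rh41. A response that passed the threshold and was at least 1 log2, in either direction, was measured for 1283 genes in Rh30 and 385 in Rh41. The median size of the response over all genes was 0.228 log2 in Rh30 and 0.158 in Rh41. The median signed response was 0.0515 and 0.0155, which says how rises and falls balance and not how far genes moved. Array medians were nearly level within each line, so a shift of all genes together could not be seen. Across genes the responses of the lines, which share no array, had a Pearson r of 0.527 (Spearman correlation 0.432), a description in which genes are not independent replicates.

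The called genes fall into 5 classes by each line's own response. Rh30 alone passed for 2044 genes: 1034 higher in Rh41 (a median of -0.78 in Rh30) and 1010 lower (0.71 in Rh30). Rh41 alone passed for 281 genes that were higher and 222 that were lower. Both lines passed in the same direction but to a different degree for 666 genes, and the larger response was that of Rh30 in 612 and that of Rh41 in 54. Both passed with opposite signs for 190 genes, 1.07% of those tested, of which 103 (0.582%) fell in Rh30 and rose in Rh41 and 87 (0.492%) did the reverse. For the remaining 131, neither line passed alone. Beside these, 1416 genes moved in the same direction in both lines with a difference that was not called. The standard error of the difference had a median of 0.184 log2 and the smallest called difference was 0.329. That value is no detection limit, since a gene with a larger standard error needed a larger difference to be called.

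**Figure D1:**
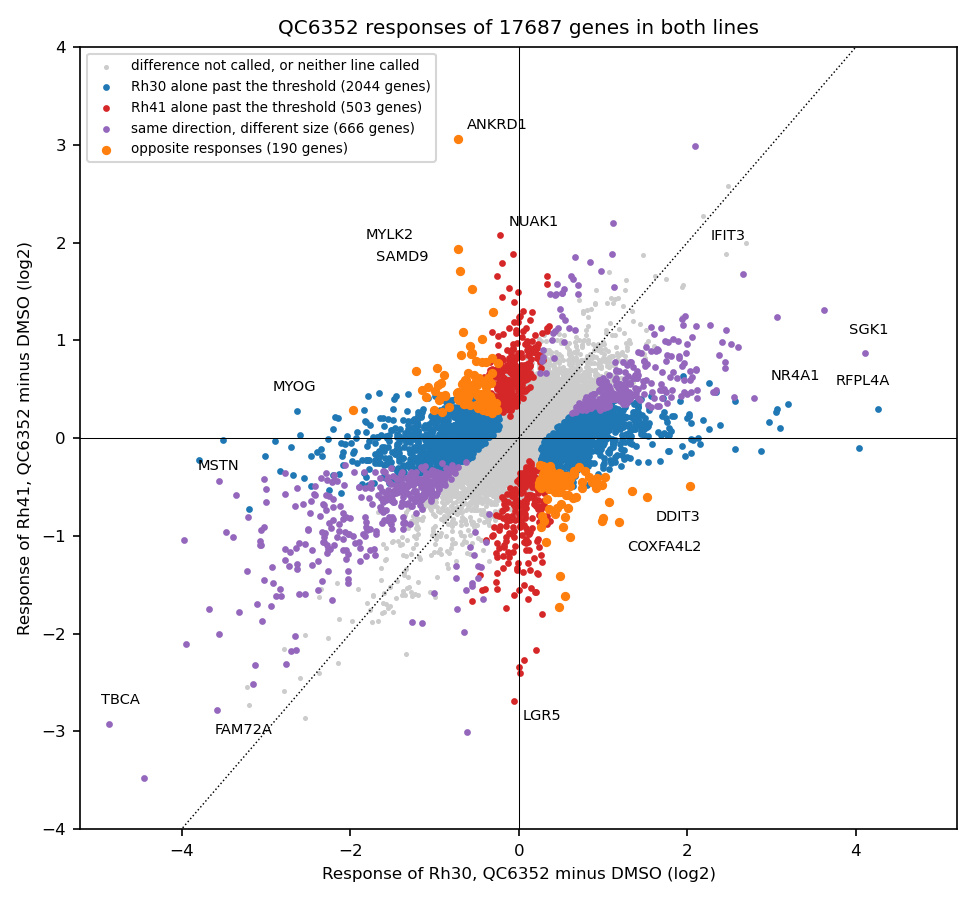
Response of each of 17687 genes to QC6352 in Rh30 (x axis) and Rh41 (y axis), as log2 QC6352 minus DMSO, 3 arrays per group. Colours mark the classes of called genes, the dotted line marks equal responses, and the cloud is wider along the Rh30 axis. A response of at least 1 log2 that passed the threshold was measured for 1283 genes in Rh30 and 385 in Rh41.

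ANKRD1, which encodes an ankyrin repeat protein of striated muscle and is a well known YAP target, had the largest difference among the genes with opposite responses. It lay at 8.15, 8.27 and 8.34 log2 in Rh30 with DMSO and at 7.66, 7.67 and 7.26 with QC6352, and at 6.22, 6.03 and 5.95 in Rh41 with DMSO and 9.15, 9.30 and 8.94 with QC6352. The arrays of DMSO and QC6352 did not overlap in either line, as the choice of the gene required. ANKRD1 went from lower in Rh41 to higher in Rh41. The difference was 3.78 ± 0.19 (SE, adjusted p = 3.31e-10, limma with Benjamini-Hochberg adjustment).

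MYLK2, the myosin light chain kinase of skeletal muscle, fell by 0.72 in Rh30 and rose by 1.93 in Rh41. Its Rh30 arrays with QC6352 were wide apart, at 6.82, 7.98 and 7.38, against 8.09, 8.15 and 8.09 with DMSO, while Rh41 went from 5.61, 5.08 and 5.12 to 7.19, 7.35 and 7.08. The fall in Rh30 therefore rests on a group with a large spread, in which 1 array lay close to the controls. DYSF, the gene of the membrane repair protein dysferlin, fell by 1.22 in Rh30, from 8.84, 8.69 and 8.76 to 7.72, 7.44 and 7.46. It rose by 0.69 in Rh41, from 7.58, 7.52 and 7.61 to 8.22, 8.22 and 8.33. Here the arrays of each group were tight and the difference was 1.91 ± 0.13 (adjusted p = 1.8e-08). The adenylate kinase gene AK5 (-0.97 and 0.72 in Rh30 and Rh41), the potassium channel gene KCNH1 (-0.89 and 0.64), the SNARE-binding gene STXBP6 (-0.69 and 0.85) and SAMD5 (-0.67 and 1.09) had the same pattern, each with DMSO and QC6352 arrays that did not overlap in either line.

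In the other direction, DDIT3, which encodes the stress transcription factor CHOP, rose from 8.76, 8.64 and 8.95 to 10.35, 10.23 and 10.35 in Rh30. In Rh41 it fell from 7.10, 6.98 and 6.83 to 6.36, 6.06 and 6.69. The groups did not overlap in either line, again a condition of the choice, and the difference was -2.13 ± 0.20 (adjusted p = 7.21e-07). COXFA4L2, formerly NDUFA4L2, a mitochondrial gene known for its induction in low oxygen, went from 6.51, 6.57 and 6.15 to 7.64, 7.57 and 7.60 in Rh30 and from 6.12, 6.16 and 6.10 to 5.24, 5.08 and 5.48 in Rh41. Its levels in the lines were close with DMSO and over 2 log2 apart with QC6352, with a difference of -2.04 ± 0.17. AMACR, a racemase of branched fatty acid breakdown, rose by 1.00 in Rh30 and fell by 0.82 in Rh41. Its read-through partner C1QTNF3-AMACR had 0.99 and -0.84, but the 2 genes overlap and are not separate results. AFMID, an enzyme of tryptophan breakdown (0.61 and -1.01), CCDC80 (1.07 and -0.65), the transcription factor gene POU4F1 (0.68 and -0.60) and CLBA1 (0.64 and -0.61, near background in Rh30 with DMSO) complete this group.

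**Figure D2:**
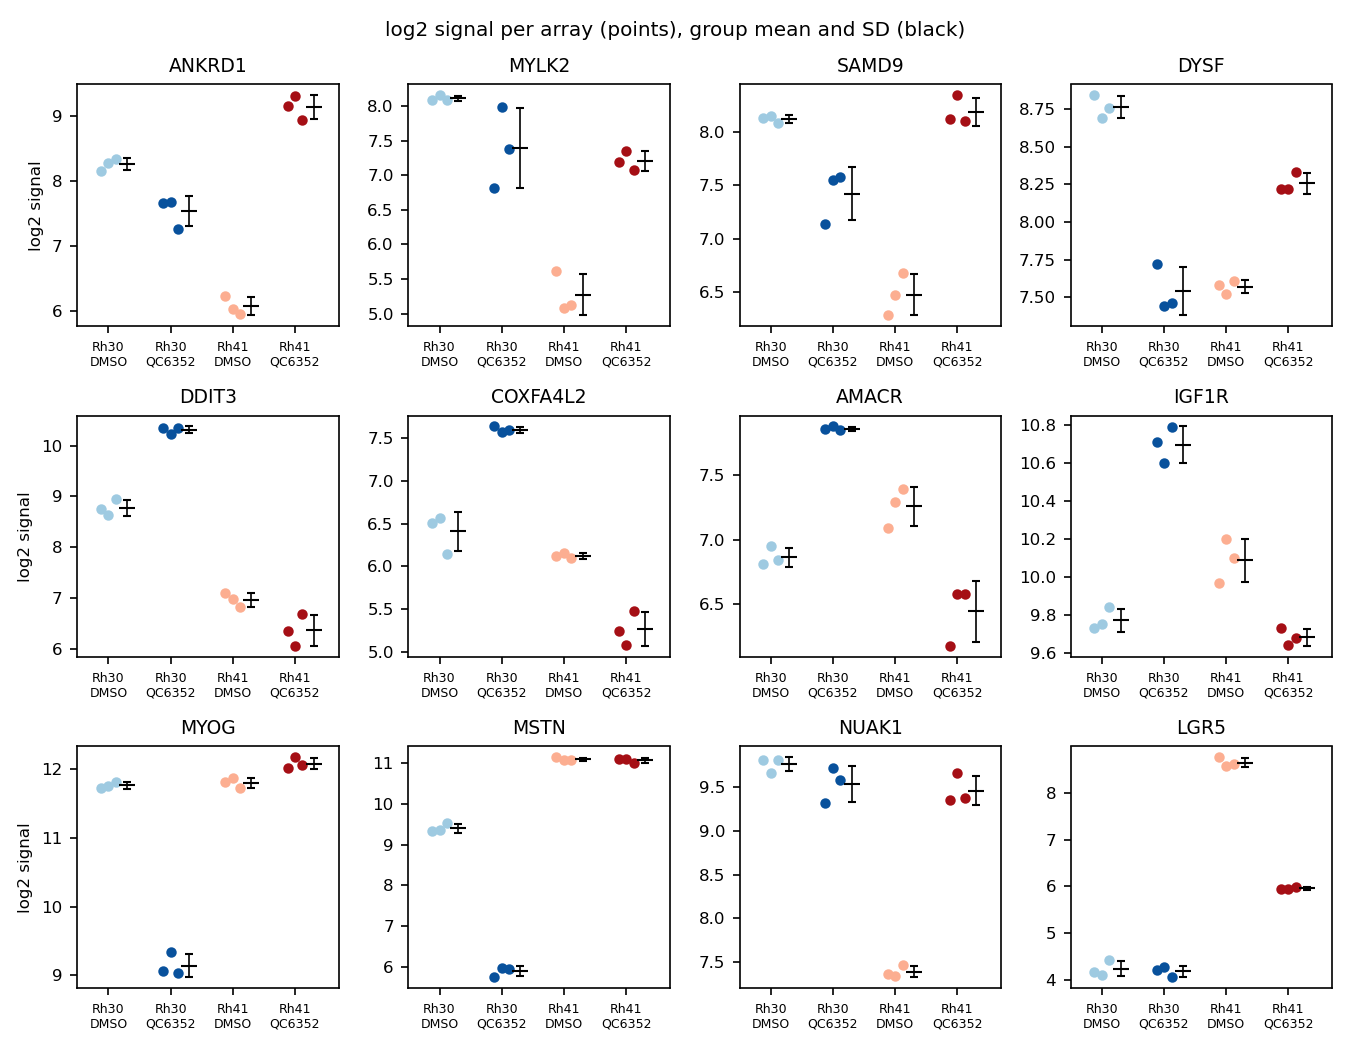
log2 signal of 12 genes on each of the 12 arrays (points), with the group mean and SD in black, on an axis scaled to each gene. ANKRD1, MYLK2, SAMD9 and DYSF fell in Rh30 and rose in Rh41, DDIT3, COXFA4L2, AMACR and IGF1R did the reverse, and the bottom row holds genes whose response passed in 1 line alone, such as MYOG, at 9.03 to 9.34 in Rh30 with QC6352 and 11.72 or above on all other arrays.

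Myogenic regulators had the largest share of members higher in Rh41 among the 35 pathway lists examined. Of 23 measured, 11 had a higher response in Rh41 and 1 a lower one, against 10.5% and 9.45% of all genes. In Rh30 10 members fell and 3 rose, and in Rh41 3 fell and 5 rose. Over all genes 16.5% fell and 19.9% rose in Rh30, and 8.80% and 10.9% in Rh41. The median response was -0.22 in Rh30 and 0.07 in Rh41, and the median difference 0.44, against -0.03 over all genes. By sample name 0 were higher and 3 lower.

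MYOG, the gene of myogenin, lay at 11.72, 11.76 and 11.82 in Rh30 with DMSO and at 9.06, 9.34 and 9.03 with QC6352. In Rh41 it lay at 11.82, 11.87 and 11.72 with DMSO and 12.01, 12.17 and 12.06 with QC6352. The lines were level with DMSO, and Rh30 alone lost MYOG: the response was -2.63 against 0.28, a difference of 2.91 ± 0.14 (adjusted p = 3.31e-10). MYMK, whose product fuses myoblasts, fell from 8.67, 8.88 and 8.82 to 6.33, 6.44 and 7.01 in Rh30 and stayed within 7.83 to 8.23 over all 6 Rh41 arrays (difference 2.30 ± 0.23). MYOD1, the master regulator of the lineage, fell by 1.37 in Rh30, and its response in Rh41 was -0.21 with overlapping groups (difference 1.16 ± 0.17). MEF2C (-1.41 and 0.09), MYF5 (-1.29 and -0.22) and the E-protein gene TCF12 (-0.94 and -0.03), named here for their roles as members or partners of the MYOD1 family, also passed for the difference. MYF5 lay at 4.30 to 5.05 on the 6 Rh41 arrays.

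The inhibitors of these factors were divided. ID1, whose product blocks DNA binding of MYOD1, fell by 0.53 in Rh30 with a response of 0.36 in Rh41. ID2 rose from 8.59, 8.84 and 8.68 to 11.41, 11.22 and 11.30 in Rh30 and from 6.90, 7.11 and 6.62 to 7.82, 7.64 and 7.99 in Rh41. It is the member with the lower response in Rh41 (2.60 and 0.94, difference -1.67 ± 0.18). MSTN, the gene of myostatin, a secreted brake on muscle growth that is in no list here, went from 9.32, 9.36 and 9.53 to 5.75, 5.97 and 5.96 in Rh30. All 6 Rh41 arrays lay between 11 and 11.13 (difference 3.49 ± 0.17).

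Genes of the contractile apparatus did not follow the regulators as a group. Of 57 sarcomere genes, 10 were higher (17.5%) and 5 lower (8.77%) in Rh41, the latter 3 without Rh30 DMSO replicate 2. In Rh30 11 rose and 9 fell, and in Rh41 12 rose and 2 fell. Over all genes 19.9% rose and 16.5% fell in Rh30, and 10.9% and 8.80% in Rh41. The Rh30 counts were near these shares. The cardiac actin gene ACTC1 had opposite responses, from 12.84, 12.74 and 12.77 to 11.97, 11.99 and 11.76 in Rh30 and from 12.31, 12.24 and 12.25 to 12.70, 12.73 and 12.65 in Rh41. The embryonic light chain gene MYL4 did too (-0.94 and 0.38), as did CHRNG, the fetal subunit of the acetylcholine receptor (-1.1 and 0.41). KLHL41 fell by 1.71 in Rh30 alone (-0.26 in Rh41). TPM1, a tropomyosin gene, rose in both lines and more in Rh41 (0.37 and 1.47). MYPN, the gene of the Z-disc protein myopalladin (2.42 and 0.99), and MYL1, a fast light chain gene (2.10 and 0.70), rose in both and more in Rh30. At the synapse, 5 of 16 members were higher in Rh41 (31.2%) and 1 was lower (6.25%), against 10.5% and 9.45% of all genes. SNTB1 (-2.11 and -0.05) and UTRN, the gene of utrophin (-2.31 and -0.68), were among the higher ones.

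The targets of PAX3-FOXO1 were split. PAX3, the gene that gives the fusion its promoter, rose by 0.55 in Rh30 and 0.36 in Rh41 (difference -0.19, 95% interval -0.47 to 0.10, not called), and FOXO1 fell by 0.94 and 1.14 (difference -0.20, interval -0.48 to 0.08, not called). By sample name the FOXO1 difference was called (-1.39, adjusted p = 0.00195, limma) and that of PAX3 was not. The array probes of these symbols were not tied to the fusion transcript here. Of 35 listed targets, 17 fell and 5 rose in Rh30, and 18 fell and 1 rose in Rh41. Over all genes 16.5% fell and 19.9% rose in Rh30, and 8.80% and 10.9% in Rh41. Yet 8 targets were higher in Rh41 and 8 lower (22.9% each, against 10.5% and 9.45% of all genes). The higher count was 5 without Rh30 DMSO replicate 2, without Rh30 QC6352 replicate 3 or without Rh41 QC6352 replicate 3. The median difference was 0.00. By sample name 0 were higher and 9 lower.

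All 4 targets with opposite responses rose in Rh30 and fell in Rh41. IGF1R, a growth factor receptor gene, went from 9.73, 9.75 and 9.84 to 10.71, 10.60 and 10.79 in Rh30 and from 9.97, 10.20 and 10.10 to 9.73, 9.64 and 9.68 in Rh41 (difference -1.33 ± 0.12, adjusted p = 3.31e-07). FOXF1, a forkhead transcription factor gene, had 0.33 and -1.07, POU4F1 0.68 and -0.60, and the BMP antagonist gene GREM1 0.57 and -0.39. TFAP2B fell by 1.15 in Rh41 alone (0.12 in Rh30, where it lay at 3.96 to 4.39, near background). On the other side, KCNN3 (-1.56 and -0.42), RASSF4 (-0.90 and 0.13) and MYOD1 fell more in Rh30, and for RASSF4 and MYOD1 Rh41's own response did not pass. Within the IGF and insulin axis, AKT1 also had opposite responses (0.43 and -0.55). The insulin receptor substrate IRS2 rose by 0.89 in Rh30 alone, with 3.93 to 4.49 in Rh41, near background, and IRS1 by 0.43 in Rh41 alone, and each of these differences was called.

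Immediate early genes had the largest share of lower responses in Rh41 among the same 35 lists. These genes are switched on fast by growth factors and stress, and the NR4A genes encode nuclear receptors of this class. Of 28 measured, 17 were lower in Rh41 and 1 higher, against 9.45% and 10.5% of all genes. In Rh30 20 rose and 2 fell, and in Rh41 9 rose and 1 fell. Over all genes 19.9% rose and 16.5% fell in Rh30, and 10.9% and 8.80% in Rh41. The median response was 1.08 and 0.25 and the median difference -0.71. By sample name 1 was lower and 1 higher.

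NR4A1 lay at 7.08, 7.22 and 7.17 in Rh30 with DMSO and at 10.67, 9.83 and 10.54 with QC6352, against 7.63, 7.40 and 7.52 and then 7.92, 7.84 and 7.82 in Rh41. All arrays with QC6352 were above their controls, but Rh41's response of 0.35 did not pass, and the difference was -2.84 ± 0.22 (adjusted p = 4.65e-08). NR4A2 was near background in Rh30 with DMSO, at 4.82, 4.81 and 5.2, and rose to 7.86, 7.35 and 8.24 with QC6352, while it lay near background in Rh41 with either treatment, at 4.32 to 4.74. NR4A3 followed with 3.06 and 0.30, at 4.50 to 5.09 in Rh41, where it was near background with DMSO. The transcription factor genes JUNB (2.12 and 0.41), FOS (1.35 and 0.09), KLF4 (1.21 and -0.29) and FOSB (1.01 and 0.27) and the mRNA decay gene ZFP36 (1.96 and 0.47) had lower responses in Rh41, and JUNB and ZFP36 rose in both lines. JUND is the exception, since it fell by 0.33 in Rh30 and rose by 0.56 in Rh41 (difference 0.89 ± 0.17).

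Genes that restrain MAPK signalling, many of which are switched on by that pathway itself, were mixed. Of 23 measured, 9 were lower in Rh41 (39.1%) and 4 higher (17.4%), against 9.45% and 10.5% of all genes. The phosphatase genes DUSP5 (1.93 and 0.43), DUSP6 (0.80 and -0.14) and DUSP1 (1.89 and 0.99) were lower, while SPRY2 (-1.67 and -0.25) and SPRY1 (-0.74 and 0.02), inhibitors of receptor tyrosine kinase signalling, fell in Rh30 alone and so were higher in Rh41. SGK1, a kinase gene induced by stress and steroid hormones, had the largest difference among the named genes that rose in both lines. It went from 5.35, 5.51 and 4.92 to 9.64, 9.22 and 9.26 in Rh30 and from 8.45, 7.89 and 8.17 to 9.07, 8.99 and 9.07 in Rh41 (difference -3.24 ± 0.30). With DMSO the lines were about 3 log2 apart in SGK1, and with QC6352 they lay within 1 log2.

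Targets of ATF4 and of the unfolded protein response, which adapt cells to amino acid shortage and misfolded protein, moved apart in the lines. Of 41 measured, 20 were lower in Rh41 (48.8%) and 1 higher (2.44%), against 9.45% and 10.5% of all genes. In Rh30 17 rose and 4 fell, while in Rh41 1 rose and 14 fell. Over all genes 19.9% rose and 16.5% fell in Rh30, and 10.9% and 8.80% in Rh41. The median response was 0.23 in Rh30 and -0.13 in Rh41, and the median difference -0.43. The lower count was 3 by sample name. The higher count was 3 without Rh30 QC6352 replicate 2, and 2 without Rh30 DMSO replicate 1, Rh41 DMSO replicate 1 or Rh41 QC6352 replicate 3.

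ATF3, which the immediate early list holds too, rose from 6.88, 7.03 and 7.09 to 9.98, 9.98 and 10.20 in Rh30, and in Rh41 its arrays overlapped, at 8.14, 7.94 and 7.74 with DMSO and 7.99, 8.26 and 8.37 with QC6352 (difference -2.79 ± 0.18, adjusted p = 5.77e-09). DDIT3 is described above. SLC7A5, the gene of a large neutral amino acid transporter, had opposite responses, from 10.44, 10.61 and 10.44 to 10.97, 10.96 and 11.19 in Rh30 and from 9.58, 9.58 and 9.49 to 9.0, 9.25 and 9.23 in Rh41. SESN2 (1.37 and 0.09) and the ER protein gene CRELD2 (1.11 and -0.09) rose in Rh30 alone. TRIB3, a pseudokinase gene, fell by 0.72 in Rh41 alone (0.23 in Rh30), as did the serine synthesis gene PHGDH (-0.48), the asparagine synthetase gene ASNS (-0.55) and the one-carbon enzyme gene MTHFD2 (-0.33). The ER chaperone gene HSPA5 rose by 0.31 in Rh30, with -0.18 in Rh41. ATF4 itself is the member that was higher in Rh41. It fell in both lines, from 9.71, 9.78 and 9.64 to 8.12, 8.13 and 8.06 in Rh30 and from 10.19, 10.17 and 10.27 to 9.58, 9.50 and 9.60 in Rh41 (-1.61 and -0.65).

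**Figure D3:**
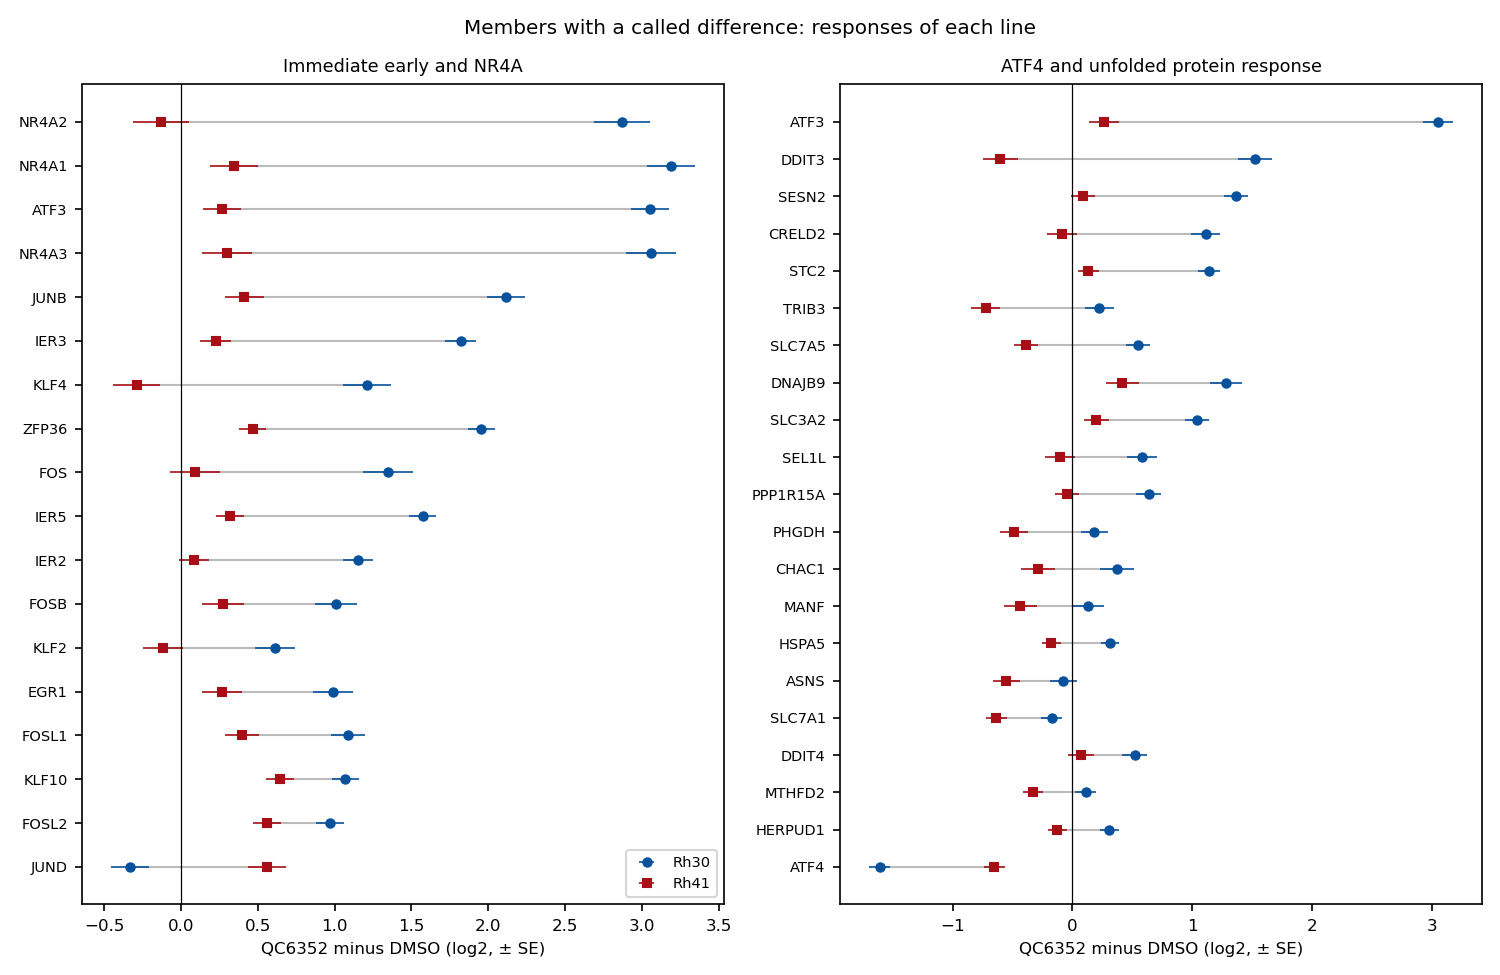
Responses to QC6352 (log2, ± SE) in Rh30 (circles) and Rh41 (squares) of the members with a called difference among immediate early and NR4A genes (18, left) and among ATF4 and unfolded protein response genes (21, right). Circles lie right of squares for all members but JUND and ATF4, and the squares of the right panel lie mostly below 0.

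Targets of p53 and the BCL2 family differed in 1 direction. Of 27 p53 targets 10 were lower in Rh41 (37%, against 9.45% of all genes) and 0 higher, and of 16 BCL2 family genes 5 (31.2%) and 0. At an unadjusted p under 0.05 4 p53 targets and 0 BCL2 family genes were higher in limma, and with the alternatives up to 3 and 0 were called. PMAIP1, which encodes the death-promoting protein NOXA and is in both lists, rose from 6.90, 6.74 and 6.75 to 9.17, 9.23 and 9.31 in Rh30 and from 7.51, 7.32 and 7.63 to 8.21, 8.13 and 8.27 in Rh41. Both lines rose without overlap, with a difference of -1.73 ± 0.17. BCL2L11, the gene of BIM, rose by 1.69 and 1.13. BCL2, the survival gene, fell by 0.91 in Rh41 alone, from 8.32, 8.21 and 8.17 to 7.34, 7.29 and 7.34, with Rh30 arrays at 5.93 to 6.5. MDM2 rose by 1.00 in Rh30 alone (0.14 in Rh41). CDKN1A, the gene of p21, rose by 1.23 in Rh30 and 0.88 in Rh41, and this difference was not called (adjusted p = 0.198).

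Interferon-stimulated genes rose in both lines, but different members rose more in each. Of 57 measured, 30 rose in Rh30 and 29 in Rh41, against 19.9% and 10.9% of all genes. The response was higher in Rh41 for 12 (21.1%) and lower for 7 (12.3%), against 10.5% and 9.45% of all genes. The lower share was thus near that of all genes. By sample name 18 were higher and 1 lower. Stretches of 4 promoters of this list are printed here because the genes span its patterns: a shared rise (IFIT3), opposite responses (SAMD9) and a rise in Rh41 alone (IFI44L, DDX60). Each is the 150 bases before the gene's start in RefSeq on GRCh38.p14, 5′ to 3′ on the strand of the gene, with matches to the interferon-stimulated response element (GAAA, any 2 bases, then GAAA), on either strand, in capitals.
IFIT3 (chr10:89327847-89327996, plus strand): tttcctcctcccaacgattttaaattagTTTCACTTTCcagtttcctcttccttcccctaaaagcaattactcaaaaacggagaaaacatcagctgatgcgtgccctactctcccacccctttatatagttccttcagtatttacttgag
SAMD9 (chr7:93117980-93118129, minus strand): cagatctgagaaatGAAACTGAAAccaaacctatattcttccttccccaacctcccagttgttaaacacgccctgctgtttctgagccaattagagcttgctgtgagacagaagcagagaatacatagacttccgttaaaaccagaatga
IFI44L (chr1:78620298-78620447, plus strand): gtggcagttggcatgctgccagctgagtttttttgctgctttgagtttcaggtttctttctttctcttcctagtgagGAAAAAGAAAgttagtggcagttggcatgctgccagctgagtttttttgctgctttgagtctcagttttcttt
DDX60 (chr4:168318753-168318902, minus strand): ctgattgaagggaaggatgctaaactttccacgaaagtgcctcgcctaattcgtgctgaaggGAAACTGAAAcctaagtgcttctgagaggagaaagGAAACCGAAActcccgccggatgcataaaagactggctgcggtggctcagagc

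IFIT3 and SAMD9 hold 1 match each in these 150 bases, on opposite strands relative to the gene, IFI44L holds 1 and DDX60 holds 2. In the longer windows of the RefSeq promoter table, from 250 bases before to 50 after the start, the motif was present in 28 of the 47 promoters of the list that matched (59.6%), against 443 of 14250 promoters of all genes tested (3.11%). It was in 8 of 12 promoters of members that were higher in Rh41, in 3 of 4 of those that were lower and in 17 of 31 of the rest, so it was found in members of each pattern. In promoters of the genes with opposite responses it was in 2 of 89 that fell in Rh30 and 2 of 75 that rose there, shares (2.25% and 2.67%) near that of all genes.

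IFIT3, an antiviral gene, rose from 6.07, 5.92 and 5.90 to 8.05, 8.29 and 8.08 in Rh30 and from 5.93, 6.16 and 5.88 to 8.13, 8.32 and 8.33 in Rh41. The lines overlapped with each treatment, and the difference was 0.09 (95% interval -0.33 to 0.52). By sample name the IFIT3 difference was 2.37 (adjusted p = 0.0255, limma). SAMD9 fell from 8.13, 8.15 and 8.08 to 7.14, 7.55 and 7.58 in Rh30 and rose from 6.29, 6.47 and 6.68 to 8.12, 8.34 and 8.10 in Rh41 (difference 2.41 ± 0.20, adjusted p = 1.31e-07). With QC6352, Rh41 thus reached the level of untreated Rh30. IFI44L lay near background in Rh30, at 3.26 to 3.91 on all 6 arrays, and in Rh41 with DMSO, and rose from 4.49, 4.78 and 4.54 to 6.01, 6.43 and 6.35 in Rh41.

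DDX60 lay at 5.48, 5.79 and 6.35 and then 5.73, 5.88 and 5.90 in Rh30, groups that overlap, and went from 6.66, 6.48 and 6.44 to 7.42, 7.74 and 7.67 in Rh41. PARP14 (0.67 and 1.85, near background in Rh41 with DMSO), HERC5 (0.51 and 1.49), IFIT1 (2.09 and 2.98, near background in Rh30 with DMSO) and RIGI, the gene of the RNA sensor RIG-I (0.71 and 1.56), rose in both lines and more in Rh41. The lower members include regulators of the response: IRF7 (1.36 and 0.20) and OASL (1.19 and 0.21) rose in Rh30 alone, as did TRIM22 (0.60 and -0.31, near background in Rh41 and in Rh30 with DMSO). Antigen presentation genes, many of which interferon also induces, were lower in Rh41 in 7 of 21 (33.3%) and higher in 1 (4.76%). The shares over all genes were 9.45% and 10.5%. Without Rh41 QC6352 replicate 2, 4 of these genes were lower. HLA-C rose from 8.04, 8.21 and 8.19 to 9.16, 9.09 and 9.21 in Rh30 and lay at 6.94 to 7.15 on all Rh41 arrays. HLA-E rose by 1.41 in Rh30, with 0.27 in Rh41.

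Replication-dependent histone genes, expressed in S phase to package new DNA, fell in both lines and further in Rh30. Of 60 measured, 51 fell in each line, against 16.5% of all genes in Rh30 and 8.80% in Rh41. The difference was called as higher in Rh41 for 26 (43.3%) and as lower for 3 (5%), against 10.5% and 9.45% of all genes. Of the 26, 24 fell in both lines. The median response was -1.1 in Rh30 and -0.89 in Rh41. By sample name 0 were higher and 9 lower. H2AC11 went from 12.28, 12.22 and 12.09 to 9.18, 9.17 and 9.16 in Rh30 and from 6.15, 5.99 and 6.26 to 5.71, 5.81 and 5.64 in Rh41, so the line with the smaller fall also had the lower level with DMSO. H4C5 had similar levels with DMSO, 12.88 to 12.94 in Rh30 and 12.33 to 12.44 in Rh41, and fell by 2.78 and 1.13. The exceptions were H2BC14, which fell by 3.01 in Rh41 from 8.92, 8.72 and 8.95 to 5.83, 5.71 and 6.02 and by 0.61 in Rh30 from 5.28, 5.99 and 5.87 to 4.69, 5.52 and 5.11, which overlap, H1-3 (-0.15 and -1.74) and H3C10 (-0.12 and -1.16), and 5 histones were lower without Rh30 QC6352 replicate 1. Histone genes of 1 type are near copies of each other, so the array may not fully separate them.

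**Figure D4:**
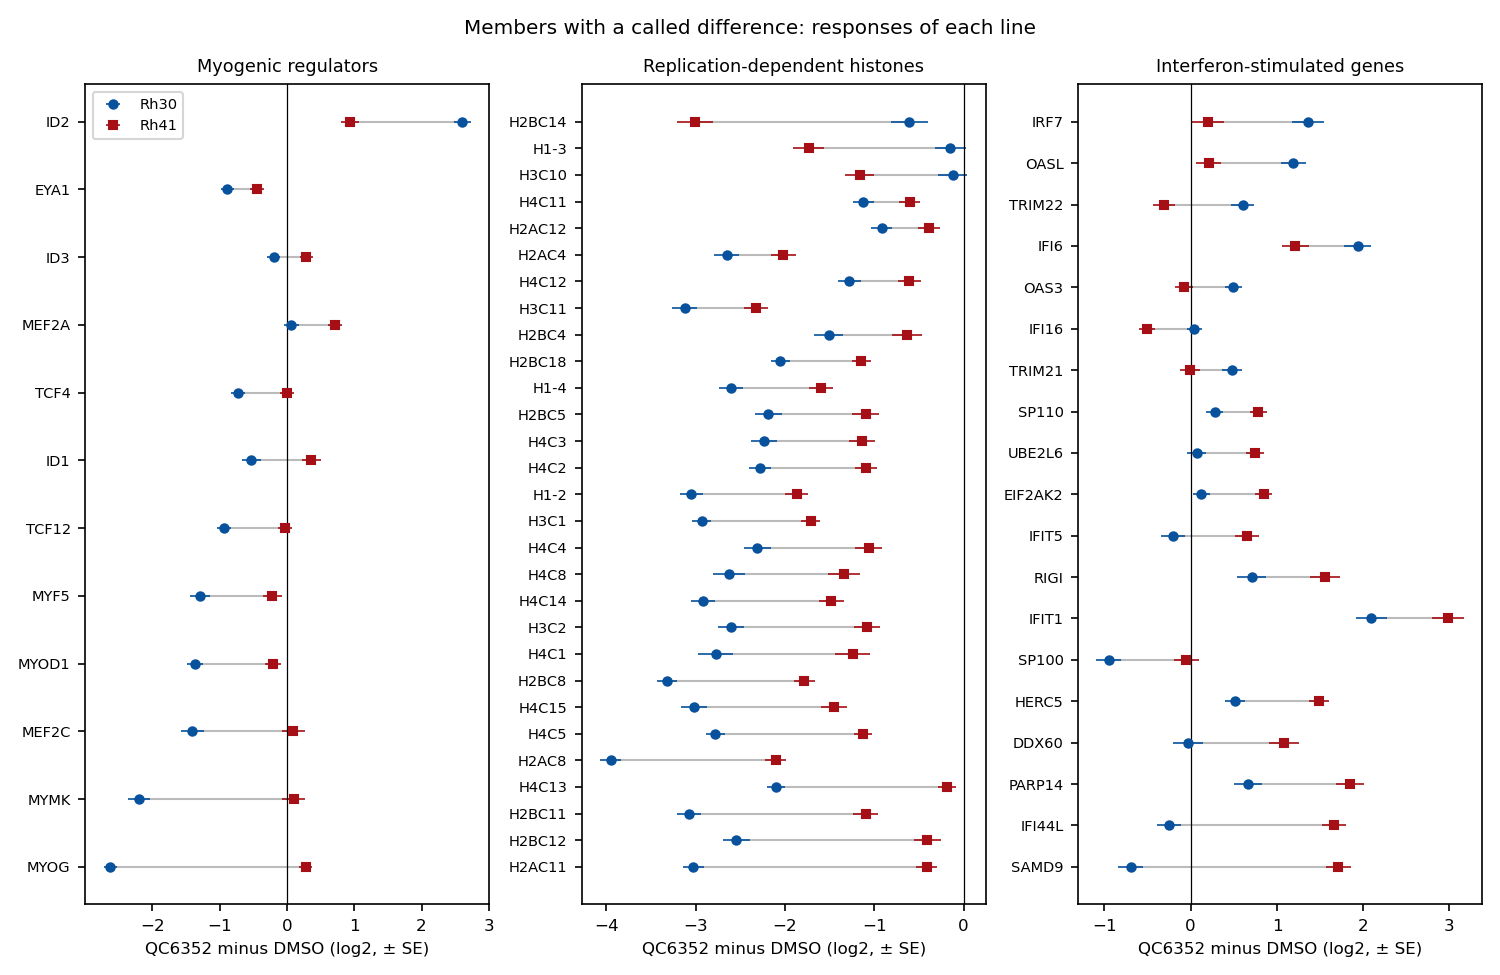
Responses to QC6352 (log2, ± SE) in Rh30 (circles) and Rh41 (squares) of the members with a called difference among myogenic regulators (12), replication-dependent histones (29) and interferon-stimulated genes (19). Squares lie right of circles for all myogenic regulators but ID2 and for 26 of the 29 histones, while the interferon list holds both orders.

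Among 54 genes for G1/S and replication, 12 were lower in Rh41 (22.2%) and 1 higher, and the higher count was 2 to 5 under 7 of the alternatives and 0 under 2. The chromatin assembly gene CHAF1A, which loads histones at the fork, rose by 0.81 in Rh30, from 9.01, 8.99 and 8.98 to 9.90, 9.74 and 9.78, with a response of -0.21 in Rh41. The cyclin gene CCNE2 rose in both lines (1.26 and 0.53). Of 75 genes of G2/M and mitosis, 10 were higher and 9 lower, shares (13.3% and 12%) near those of all genes (10.5% and 9.45%). The kinetochore gene SKA2 fell from 10.84, 10.78 and 10.92 to 6.66, 7.08 and 6.90 in Rh30 and from 11.26, 11.12 and 11.15 to 10.23, 9.93 and 10.23 in Rh41 (difference 2.92 ± 0.15). The condensin gene SMC4 fell by 1.80 in Rh30 alone (-0.23 in Rh41), whereas CENPE rose by 1.14 in Rh30 alone (-0.19). The FAM72 genes fell in both lines with no difference called, FAM72A with responses of -3.21 and -2.73, FAM72D with -2.78 and -2.59 and FAM72B with -3.22 and -2.54, though near-identical copies may share signal. By sample name their differences were called, at -2.97, -2.94 and -2.87.

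Of 45 cytosolic ribosomal protein genes, 29 fell in Rh30 and 8 in Rh41, against 16.5% and 8.80% of all genes. The difference was higher in Rh41 for 12 (26.7%, against 10.5% of all genes) and lower for 0 in limma (1 at an unadjusted p under 0.05), and the former count was 20 with a trend and robust variance. RPL10A (-1.62 and -0.86) and RPL7 (-0.93 and -0.11) had the largest differences. Of 64 subunits of oxidative phosphorylation, 22 fell and 5 rose in Rh30, and 4 fell in Rh41. Here 13 were higher in Rh41 (20.3%) and 3 lower (4.69%), but 8 were higher without Rh30 DMSO replicate 3, Rh41 DMSO replicate 1 or Rh41 DMSO replicate 3, and 7 without Rh41 QC6352 replicate 3. NDUFV2 had a large spread, at 9.19, 8.55 and 8.57 and then 7.46, 7.08 and 6.42 in Rh30, and 9.59, 9.48 and 9.63 and then 9.01, 9.10 and 9.16 in Rh41 (difference 1.31 ± 0.32). NDUFC1 rose by 0.86 in Rh30, with -0.25 in Rh41.

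Of 42 lysosome and autophagy genes, 27 rose in Rh30 and 12 in Rh41. Over all genes 19.9% rose in Rh30 and 10.9% in Rh41, and 16.5% fell in Rh30. Of the list, 11 were lower in Rh41 (26.2%) and 3 higher (7.14%), against 9.45% and 10.5% of all genes. CD68, a lysosomal membrane protein gene known as a macrophage marker, rose from 6.79, 6.75 and 6.60 to 10.36, 10.35 and 10.29 in Rh30 and from 6.35, 6.35 and 6.26 to 7.81, 7.47 and 7.60 in Rh41 (difference -2.31 ± 0.16). Of 11 blood cell markers, 0 had a called difference in limma (2 at an unadjusted p under 0.05). In Rh30 2 of these markers rose and in Rh41 1, near the shares over all genes. Of 24 NRF2 and glutathione genes 11 rose and 4 fell in Rh30, and 7 were lower in Rh41 (29.2%) and 1 higher. EPHX1, a detoxifying epoxide hydrolase gene, rose in both lines (2.46 and 1.11). ME1, the malic enzyme gene, fell from 8.78, 8.93 and 9.0 to 6.36, 6.01 and 6.21 in Rh30, and was near background on all Rh41 arrays. Of 26 NF-kB targets 11 rose and 4 fell in Rh30, and 7 were lower in Rh41 (26.9%) and 1, TNIP1, higher (-0.72 and 0.40, opposite responses).

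**Figure D5:**
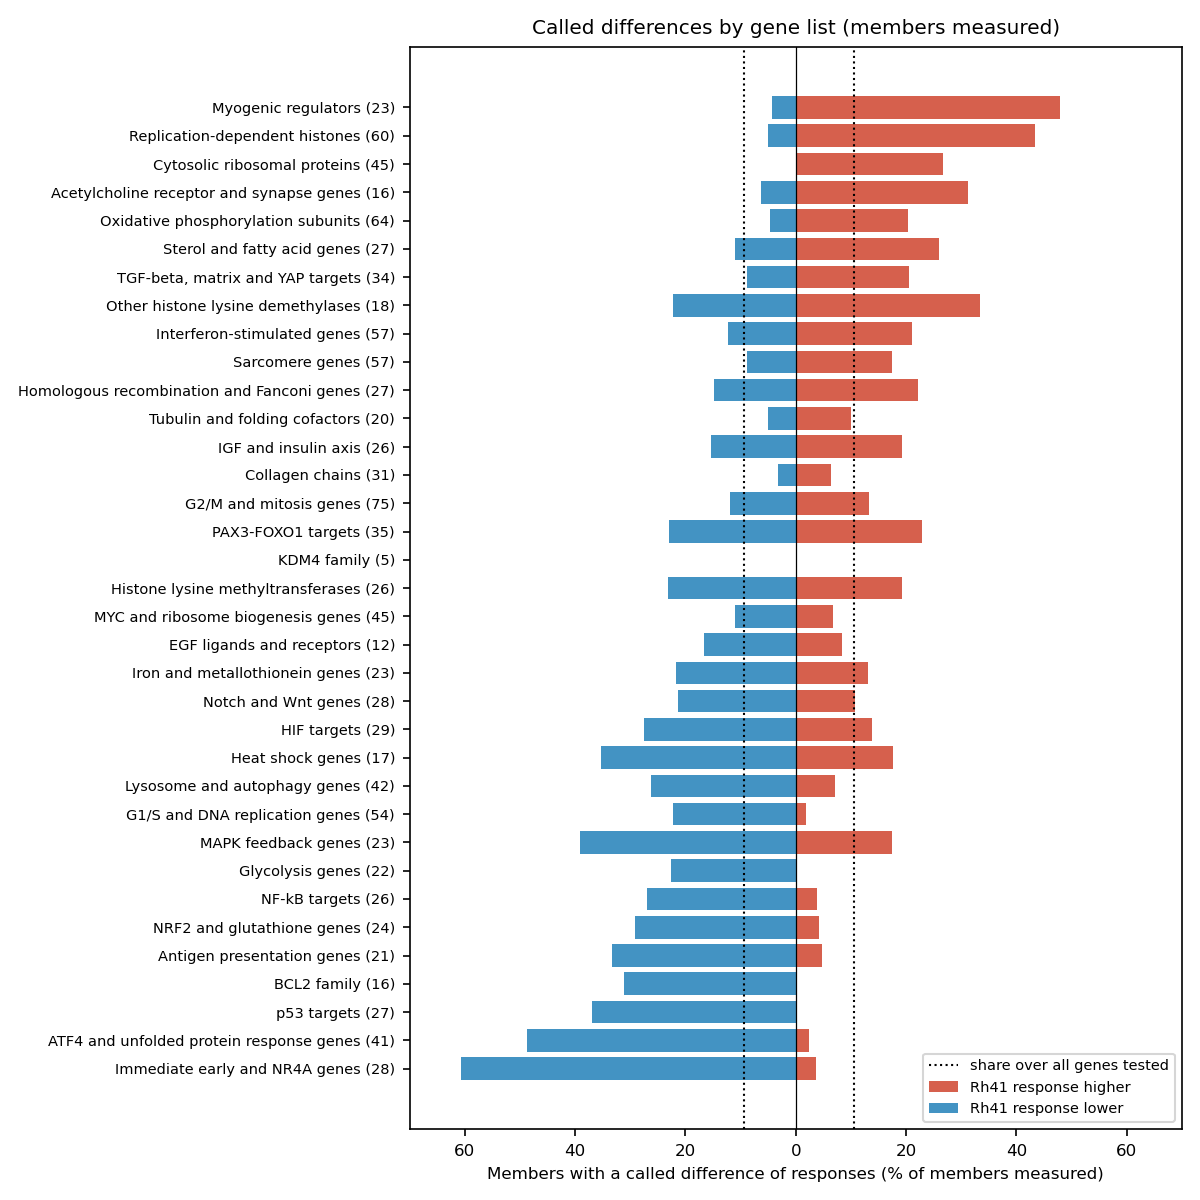
Share of the measured members of each of 35 gene lists with a called difference of responses, higher in Rh41 to the right and lower to the left, with the number measured in brackets. Dotted lines mark the shares over all genes tested, 10.5% higher and 9.45% lower; immediate early and ATF4 genes extend furthest to the left and myogenic regulators and histones furthest to the right.

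Signalling, low oxygen, heat shock and lipid lists held smaller counts. Of 28 Notch and Wnt genes, 6 were lower in Rh41 (21.4%) and 3 higher (10.7%), against 9.45% and 10.5% of all genes. HES1, a repressor that Notch induces, went from 6.58, 6.33 and 6.61 to 8.57, 8.28 and 8.58 in Rh30 and lay at 8.98 to 9.27 on all Rh41 arrays (difference -2.15 ± 0.18). AXIN2, a feedback target of Wnt, rose in both lines (2.31 and 0.47), as did the ligand gene JAG1 (1.41 and 0.62). Of 17 heat shock genes 6 were lower (35.3%) and 3 higher (17.6%). DNAJB1 (0.82 and 0.13) and BAG3 (0.62 and 0.04), partners of HSP70, rose in Rh30 alone, and CRYAB, a small heat shock protein gene of muscle, rose in Rh41 alone (-0.13 and 0.50, near background in Rh30).

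Of 29 HIF targets, which respond to low oxygen, 8 were lower (27.6%) and 4 higher (13.8%), against 9.45% and 10.5% of all genes. The lower count was 5 without Rh41 DMSO replicate 2 or Rh41 QC6352 replicate 3, and the higher count was 2 without Rh30 DMSO replicate 1 or 3, Rh30 QC6352 replicate 2 or 3, Rh41 DMSO replicate 3 or Rh41 QC6352 replicate 3. VEGFA, the gene of an angiogenic factor, rose by 1.04 and 0.40, and ADM and the glucose transporter gene SLC2A1 rose in Rh30 alone (1.37 and 0.82). EGLN3, a prolyl hydroxylase gene that HIF induces, fell by 1.16 in Rh30 alone, so the list did not move as one. Of 27 sterol and fatty acid genes 7 were higher (25.9%) and 3 lower (11.1%), the former 3 without Rh30 DMSO replicate 1, Rh30 QC6352 replicate 2, Rh41 DMSO replicate 2 or 3, or Rh41 QC6352 replicate 1 or 3. ACACA, the gene of acetyl-CoA carboxylase, fell by 1.52 and 0.47, and the next enzyme, FASN, had opposite responses (0.26 and -0.27).

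The remaining lists had 10 or fewer called members each. Among homologous recombination and Fanconi genes, the largest differences were those of PSMC3IP (1.79 and 0.10, lower in Rh41) and FANCC (-2.05 and -0.81, higher in Rh41). Counts of higher and lower members were 6 and 4 of 27 for this list (22.2% and 14.8%, against 10.5% and 9.45% of all genes). They were 3 and 5 of 45 for MYC and ribosome biogenesis (6.67% and 11.1%) and 3 and 5 of 23 for iron and metallothionein genes (13% and 21.7%). Glycolysis had 0 and 5 of 22 (0% and 22.7%) and collagens 2 and 1 of 31 (6.45% and 3.23%). Tubulins had 2 and 1 of 20 (10% and 5%) and EGF ligands and receptors 1 and 2 of 12 (8.33% and 16.7%). Several of these small counts rest on single arrays. The lower count was 2 for recombination without Rh30 QC6352 replicate 3, Rh41 DMSO replicate 1 or Rh41 QC6352 replicate 1, and 3 for MYC without Rh41 DMSO replicate 1. It was 3 for glycolysis without Rh30 DMSO replicate 3, Rh41 DMSO replicate 1, or Rh41 QC6352 replicate 1 or 2. For iron it was 3 without any array but Rh30 DMSO replicate 2, Rh30 QC6352 replicate 3 and Rh41 DMSO replicate 2. The collagen, tubulin and EGF counts, of 1 or 2 genes each, moved by 1 gene when single arrays were left out. Of these 7 lists, the shares of MYC, collagen and tubulin genes (3.23% to 11.1%) were near or below those of all genes. So were the higher shares of iron (13%), EGF (8.33%) and glycolysis genes (0%). FTL, the gene of ferritin light chain, rose in both lines (1.27 and 0.44).

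None of the 5 KDM4 genes measured, the targets of the drug, had a called difference with limma, nor an unadjusted p under the threshold (0 of 5). This holds for the titles: by sample name 1 was called lower in Rh41, KDM4D (-1.65, adjusted p = 0.0367, limma). KDM4A rose in both lines, from 8.08, 8.23 and 8.11 to 8.58, 8.54 and 8.78 in Rh30 and from 8.90, 8.91 and 8.79 to 9.26, 9.49 and 9.38 in Rh41, with a difference of 0.02 (95% interval -0.29 to 0.33). KDM4D fell by 0.80 and 0.95, near background in Rh30 (difference -0.16, interval -0.83 to 0.52). KDM4B (difference -0.15, interval -0.72 to 0.42) and KDM4C (0.31, interval -0.14 to 0.77) were not called either, and their DMSO and QC6352 arrays overlapped in Rh30.

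Other histone modifiers did differ. Of 18 further lysine demethylases 6 were higher in Rh41 (33.3%) and 4 lower (22.2%), against 10.5% and 9.45% of all genes. KDM5A, which acts on a mark of active promoters, rose by 1.29 and 0.43, and KDM2B by 0.54 in Rh30 with -0.20 in Rh41. Of 26 lysine methyltransferases 5 were higher (19.2%) and 6 lower (23.1%), the latter 3 without Rh41 QC6352 replicate 1. EZH1, a catalytic subunit of the Polycomb complex PRC2, had opposite responses, from 8.06, 7.78 and 7.54 to 6.69, 6.68 and 6.55 in Rh30 and from 7.73, 7.86 and 7.81 to 8.13, 8.33 and 8.40 in Rh41. EZH2, whose product fills the same role, rose in both lines and more in Rh30 (0.95 and 0.49). KMT2C, an enhancer methyltransferase gene, fell by 1.58 and 0.35.

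Several large differences were in genes near background in 1 line. Of the 222 genes that fell in Rh41 alone, 76 were near background in Rh30 with both treatments, as were 52 of the 281 that rose in Rh41 alone. LGR5, a receptor gene of the Wnt pathway, fell from 8.75, 8.56 and 8.61 to 5.95, 5.94 and 5.98 in Rh41 and lay at 4.06 to 4.43 on all Rh30 arrays. CNTN4, a neural adhesion gene, did likewise (-2.35 in Rh41, near background in Rh30). The homeobox gene DBX1 fell from 10.14, 10.14 and 10.10 to 7.58, 7.58 and 8.02 in Rh41, with Rh30 arrays at 4.87 to 5.26. MTMR7, a phosphatase gene, fell by 2.17 in Rh41, from 9.49, 9.33 and 9.32, and lay at 6.15 to 6.54 in Rh30, above background. Conversely, 46 of 1034 and 92 of 1010 genes that passed in Rh30 alone were near background in Rh41. RFPL4A and RFPL4AL1, near-identical copies that may share signal, rose by 4.26 and 4.04 in Rh30, from means of 5.05 and 4.60 of which the latter is near background, and were near background in Rh41.

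Other genes moved in 1 line alone while above background in both. HS2ST1, a heparan sulfate sulfotransferase gene, fell from 9.59, 9.45 and 9.56 to 5.55, 6.26 and 5.41 in Rh30 and lay at 9.84 to 10.24 on the 6 Rh41 arrays (difference 3.57 ± 0.24). TMEM108 fell by 2.90 in Rh30 alone, with Rh41 arrays at 7.63 to 7.71. In Rh41, NUAK1, a kinase gene related to AMPK, rose from 7.36, 7.34 and 7.47 to 9.35, 9.66 and 9.38, while Rh30 lay at 9.32 to 9.81 with either treatment. P2RX7, an ATP-gated channel gene, rose by 1.88 in Rh41 alone. With QC6352, NUAK1 in Rh41 lay in the range of Rh30. SEMA3E, a guidance factor gene, was near background in Rh41 with DMSO, at 5.0, 5.03 and 4.63, and rose to 6.59, 6.75 and 6.69, with Rh30 arrays at 5.18 to 5.93.

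Among genes that moved the same way, TBCA, a tubulin folding cofactor gene, fell from 10.11, 9.97 and 9.90 to 5.04, 5.24 and 5.12 in Rh30 and from 10.71, 10.63 and 10.62 to 7.60, 7.65 and 7.96 in Rh41. Both lines fell without overlap, and the difference was 1.94 ± 0.16. NEGR1, an adhesion gene, fell by 3.55 and 0.44, and the homeobox gene PBX3 had -3.35 and -0.58. TLCD1 rose by 2.79 and 0.41. The reverse order was rarer: the transcription factor genes EBF1 (-0.43 and -1.65) and RFX3 (-0.56 and -1.52) and ERMARD (-0.73 and -1.74) fell in both lines with the larger value in Rh41, and PDCD1LG2, the gene of the checkpoint ligand PD-L2, rose more there (0.45 and 1.58). RFX3 and ERMARD ended near background in Rh30 with QC6352, and ERMARD in Rh41 too, so the background limits these falls. AXL, a receptor kinase gene, and THBS1, a matrix gene, in the list of TGF-beta, matrix and YAP targets together with ANKRD1, also rose more in Rh41 (0.44 and 1.47, and 0.43 and 1.46). Of this list 7 of 34 were higher in Rh41 (20.6%) and 3 lower (8.82%), against 10.5% and 9.45% of all genes. The lower count was 5 with centred medians, without genes near background or with the replicate block, 6 with array weights and 7 with trend and robust. The classic YAP target CCN1 rose by 1.09 and 1.18 with no difference called.

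Shared responses set the scale for these differences. They are shared by title only: by sample name the differences of FSD1L (2.51) and NLGN1 (-3.21) were called. FSD1L rose from 5.66, 5.34 and 5.88 to 8.25, 7.92 and 8.19 in Rh30 and from 5.79, 5.46 and 5.67 to 8.28, 8.29 and 8.10 in Rh41, with a difference of 0.09 (95% interval -0.45 to 0.64). The lines overlapped with each treatment. HBEGF, the gene of an EGF receptor ligand, rose by 2.70 and 2.00, and its difference of -0.70 did not pass (adjusted p = 0.117, limma). The antiviral gene IFIT2 rose by 2.46 and 1.89 (difference -0.57, adjusted p = 0.0701, limma). NLGN1, a synaptic adhesion gene, fell in both lines, from 6.55, 6.69 and 6.65 to 4.13, 3.75 and 4.38 in Rh30 and from 8.34, 8.32 and 8.21 to 5.01, 5.74 and 5.52 in Rh41 (difference -0.32, interval -0.93 to 0.28).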

How the data were processed

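The authors deposited 1 table of log2 signals for 24351 probe sets on 20 Affymetrix Clariom S arrays. Per the submitters' processing notes the tool was GCOS, with no version, normalization or genome build given in the sources used here. Probe sets were named from the platform annotation: 17709 carry 1 symbol (all Entrez identifiers matched a RefSeq gene table), 6642 none and 0 several. The probe set with the highest mean stood for a gene, which left out 22. The deposited log2 values were used as they are; the number of arrays, 3 per group, limits the precision.

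All 20 arrays entered 1 fit of 8 group means by title (R 4.3.3, limma 3.58.1, eBayes without trend, 12 residual degrees of freedom), with the contrast of QC6352 minus DMSO in Rh41 minus that in Rh30, and Benjamini-Hochberg adjustment over 17687 genes. p values measure only the spread between these arrays. Tested on simulated data with 200 changed genes for this contrast, the fit over 17687 genes recovered 86% of 100 2-fold and 20% of 100 1.5-fold differences, with 7 false calls. The simulation drew independent normal noise from the variances of the fit itself. It changed far fewer genes than the 3534 called in the data, which alters the adjusted threshold. Its rates therefore need not hold for the data.

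The genes, classes and 40 lists (5 of them markers) were chosen with earlier results of these data known. Named genes are the 8 per direction with the largest smaller response among opposite ones, the 4 per direction with the largest difference that passed in Rh30 alone and in Rh41 alone, 3 per direction and line of the same-direction class, the 4 largest shared rises and falls, KDM4A to KDM4D, MYOD1, MYOG, PAX3, FOXO1 and the 2 largest differences of each list with 3 or more calls. The first 4 kinds need arrays that do not overlap in the lines whose response counts. Other list members were named for their known role. Promoters of 14250 genes were matched by Entrez identifier in RefSeq (GRCh38.p14). Replicate numbers did not pair the arrays. Alternatives were quantile normalization, centring of array medians, leaving out the dimmest 40% of genes or those near background, eBayes with trend and robust, array weights, the 12 arrays alone, a replicate block, a difference of at least 1 log2, every probe set, the groups by sample name, and each array left out in turn.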

Additional observations from a re-analysis of the deposited data

Results flagged for a closer look

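The difference between the lines was itself tested for each gene, and 3534 genes had responses that differed, 190 of them with opposite signs. Among the genes with opposite signs that were named, the differences (Rh41 minus Rh30, log2) of those that fell in Rh30 and rose in Rh41 were 3.78 for ANKRD1, 2.65 for MYLK2, 2.41 for SAMD9, 1.91 for DYSF, 1.75 for SAMD5, 1.69 for AK5, 1.53 for STXBP6 and 1.53 for KCNH1. For those that rose in Rh30 and fell in Rh41 they were -2.13 for DDIT3, -2.04 for COXFA4L2, -1.83 for C1QTNF3-AMACR, -1.82 for AMACR, -1.73 for CCDC80, -1.63 for AFMID, -1.28 for POU4F1 and -1.26 for CLBA1. With groups of 3 arrays, no array was examined as an outlier of its group.

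Data outside the genes with a symbol also hold differences. Of 3739 transcript probe sets without a gene name, 395 (10.6%) had a response that differed between the lines, 185 higher in Rh41 and 210 lower, by a limma fit of the same design run on these probe sets alone, with adjustment over them.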

How the results depend on the processing

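The 4 counts of the comparison (3534 genes that differ, 1862 higher in Rh41, 1672 lower and 190 opposite) stayed within 1.5 times under 8 of the 11 alternatives besides leaving out an array. With array weights 320 genes were opposite. A difference of at least 1 log2 left 864, 512, 352 and 105. With groups by sample name 762, 207, 555 and 3 were called, 318 of them shared with the titles and 0 of the opposite ones; this grouping places other arrays in the Rh30 groups. Leaving out 1 array gave 2880 to 3399, 1541 to 1846, 1324 to 1589 and 127 to 190. Centring array medians moved the share of higher calls from 52.7% to 46.4%. The replicate numbers share a number only: same-numbered arrays had r of 0.26, 0.0615 and 0.0816 in Rh30 and -0.19, -0.0593 and -0.0778 in Rh41, and not every array correlated best with its own number. With the replicate number as a block 3495, 1870, 1625 and 205 were called, and NRG1 (adjusted p = 0.0653), LRIG1 (0.09) and HSPA4L (0.119) were no longer called. Of the 102 named genes called, these 3 are also those lost when 1 array is left out, LRIG1 and HSPA4L in the 12 arrays alone and NRG1 with trend and robust; 19 differ by less than 1 log2. Signal near background limits MYF5 and ME1 in Rh41, LGR5 in Rh30 and NR4A2 in all groups but Rh30 with QC6352. By sample name 26 of the 102 kept their call, 33 kept the direction alone and 43 reversed, with the differences TBCA (-2.96), RPL10A (-1.07), SKA2 (-1.07), DDX10 (-1.0), FANCC (-0.97), PBX3 (-0.94), UTRN (-0.80), NEGR1 (-0.59), HS2ST1 (-0.51), KMT2C (-0.49), MYOD1 (-0.48), EGLN3 (-0.48), NDUFV2 (-0.45), MSTN (-0.42), MYMK (-0.34), TMEM108 (-0.33), H2AC11 (-0.32), ACACA (-0.27), SMC4 (-0.26), UTP20 (-0.20), KLHL41 (-0.19), RPL7 (-0.18), ELOVL6 (-0.13) and ME1 (-0.052), and, positive where the titles gave a negative value, TLCD1 (0.034), IER3 (0.058), ENO3 (0.11), ADM (0.12), HLA-E (0.13), NR4A1 (0.16), ATF3 (0.24), SLC2A1 (0.25), SGK1 (0.26), TRAF1 (0.35), DUSP5 (0.38), KDM5A (0.56), TUBA4A (0.62), FTL (0.65), PMAIP1 (0.80), MYPN (0.94), HSPB8 (0.95), EPHX1 (1.01) and CD68 (1.16). None of these 43 reversed differences was called by sample name, and the smallest adjusted p among them was 0.0887 (TBCA, limma). Of the named genes not called by title, 5 were called by sample name in the same direction. They were FSD1L (2.51), IFIT3 (2.37), NLGN1 (-3.21), KDM4D (-1.65) and FOXO1 (-1.39). FAM72A (-2.97), FAM72D (-2.94) and FAM72B (-2.87) were called by sample name with the sign reversed. The cause of the change was not tested.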
